A study of Mus musculus with 12 samples.

Results

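After 6 h of actinomycin D, primary hepatocytes labelled Mettl3 cKO held more mRNA of regulators such as Cited2, Ythdf2 and Cebpb than Control hepatocytes. They held less of the mRNAs of differentiated liver functions such as cytochromes P450 and amino acid breakdown. Of the regulators named, Cited2 and Cebpb have 1 exon and Ythdf2 has 5. The comparison covered every expressed autosomal gene in 2 Mettl3 cKO and 2 Control libraries, which were assigned to the groups by their labels. It was chosen with earlier results of these data known. A total of 13972 autosomal genes passed the filter on low counts, out of 43840 autosomal genes among the 48440 of the count table, and the 4 libraries belong to a series of 12. The other 8 libraries, taken at 0 and 2 h, served to estimate the spread and to set the 6 h differences beside the earlier ones.

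The mice were of the C57BL/6J strain. Mettl3 cKO mice carried Mettl3 flox/flox alleles, with loxP sites around exons 2 to 4, together with a Cre transgene under the Alb enhancer and promoter. The study describes the deletion as specific to the liver. Control cells, called WT in the labels, came from littermates. Hepatocytes were released by collagenase perfusion, cultured for 16 h, and both groups compared here then received 5 µM actinomycin D for 6 h before poly(A) RNA was sequenced. Age, sex and whether replicates were separate mice or cultures are not given here by any source used, and p-values therefore speak only for the variation among the libraries at hand, part of which can be technical. No spike-in RNA was used.

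N6-methyladenosine, or m6A, is placed on mRNA by a complex in which Mettl3 is the catalytic subunit and Mettl14 its partner, and Ythdf proteins that bind the mark bring deadenylation to marked transcripts. The mark is found mainly in long exons and around stop codons, within short motifs of which GGAC is the best known. Actinomycin D blocks transcription, so that the mRNA left after some hours depends on the level at the start and on how fast each transcript is lost. In the liver, Hnf4a, the Foxa factors and the C/EBP factors maintain the hepatocyte programme of plasma proteins, drug metabolism and nitrogen disposal.

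The Control 6 h libraries differed in origin from the earlier Control libraries. Xist, the non-coding RNA of the silenced X chromosome of female cells, had 20246 and 16565 reads in the Control 6 h libraries and at most 6 reads in each of the 10 others. Ddx3y, a Y-linked RNA helicase, had 0 and 1 read in the Control 6 h libraries and 2440 to 3210 in the others, and Uty, Kdm5d and Eif2s3y, which are Y-linked too, had 0 reads in both. These are the patterns of female cells in Control at 6 h and of male cells in the 10 other libraries, so that sex differs between the groups at 6 h. The Mettl3 cKO 6 h libraries in turn stood apart from every other library in the enolase gene Eno1b, with 4 and 2 reads against at least 844 elsewhere. The predicted genes Gm4735 and Gm8730, chosen after their values were seen, marked further splits. Gm4735 had 4 to 10 reads in the Mettl3 cKO 6 h libraries and 272 to 592 elsewhere, whereas Gm8730 had 10 to 19 reads in Control at 0 and 2 h and 2650 to 4379 in all other libraries. Genotype and origin of the cells therefore cannot be told apart at 6 h. Gm8730 split Control from Mettl3 cKO at 0 and 2 h as well, so that the same limit applies to those comparisons. A course from 2 h to 6 h joins cells of different origin in Control, and libraries that differ in Eno1b and Gm4735 in Mettl3 cKO. Genes of the X and Y chromosomes were left out of all counts below.

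**Figure D1:**
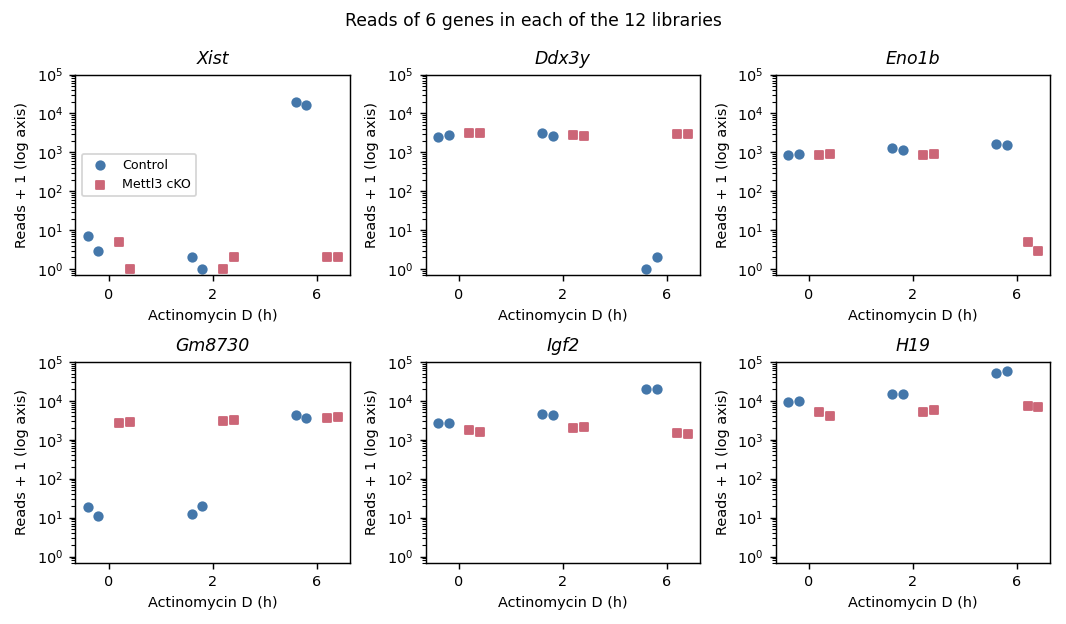
Reads per library (plus 1, log axis) of 6 genes in all 12 libraries by hours of actinomycin D, with Control as blue circles and Mettl3 cKO as red squares. Xist is at 20246 and 16565 reads and Ddx3y at 0 or 1 only in Control at 6 h, Eno1b is at 4 and 2 reads only in Mettl3 cKO at 6 h, and Igf2 and H19 are highest in Control at 6 h.

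The 6 h libraries held 20821105 and 19937845 reads in Control and 18959125 and 19003495 in Mettl3 cKO, within a range of 16952084 to 20914516 over the series. All 22 hepatocyte markers had more than 3 reads in each 6 h library. Alb alone took 8.79% and 9.52% of the Control reads against 5.14% and 5.16% of the Mettl3 cKO reads, and the factors that TMM scaling applied were 0.799 and 0.765 against 0.957 and 0.954. Levels below are reads relative to library size (CPM) scaled by TMM, in the order Control replicates 1 and 2, then Mettl3 cKO replicates 1 and 2. Differences are log2 values of Mettl3 cKO minus Control with their standard error (SE), and adjusted p-values come from edgeR's quasi-likelihood test over all genes.

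Mettl3, on chromosome 14 of mm10 from 52294841 to 52305128, did not have fewer reads in the libraries labelled Mettl3 cKO. Its levels were 18.8 and 17.9 CPM in Control and 20.3 and 25.3 CPM in Mettl3 cKO, with a log2 difference of 0.31 (SE 0.11, adjusted p = 0.0154). The call was lost without Control 6 h replicate 1 (adjusted p = 0.0507, edgeR), Control 6 h replicate 2 (0.115) or Mettl3 cKO 6 h replicate 2 (0.333). At 0 h the difference was −0.47 and at 2 h it was −0.11, the latter short of the threshold. Exons 2 to 4 make up 799 of the 2025 bp of the transcript (39.5%), so counts over the whole gene are no direct check of the deletion. Since the targeted gene went against the label at 6 h, Mettl3 cKO and Control below name the libraries so labelled, and every direction rests on those labels.

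A total of 5003 autosomal genes were higher in Mettl3 cKO (35.8% of those tested) and 4584 were lower (32.8%) at an adjusted p under 0.05, with 4385 on neither side. The median over all autosomal genes was 0.04. Large differences lay mostly on one side, since 2937 genes were higher and 972 lower by more than 1 on the log2 scale, 1295 and 278 by more than 2, and 513 and 101 by more than 3. The balance of the calls depended on the scaling. With total counts the median of all genes moved to 0.33 and the split to 6547 higher and 2739 lower, so that 70.5% of calls were higher in place of 52.2%. With ribosomal protein mRNAs as the standard it was 6292 and 2506 (71.5%), and with DESeq2 size factors 4731 and 4959 (48.8%). Differences are therefore relative to the bulk of genes, with a shift between scalings of about the distance of those medians.

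The 15 genes with the largest differences among those higher in Mettl3 cKO, with a mean of at least 10 CPM before TMM scaling, spanned log2 values of 5.02 to 7.58, with 0.240 to 4.26 CPM in Control and 21.1 to 116 CPM in Mettl3 cKO. Snx20, an endosomal sorting nexin on chromosome 8 (88626563 to 88636128, minus strand), led with 0.301 and 0.328 CPM in Control and 60.1 and 62.1 CPM in Mettl3 cKO (log2 7.58, SE 0.20, adjusted p = 8.24e-21). Dyrk3, a dual-specificity kinase that dissolves cytoplasmic condensates, had 0.902, 0.918, 100.1 and 104 CPM (log2 6.80, SE 0.15, adjusted p = 3.05e-22). In both genes the replicates of a group lay close together, while groups that do not overlap were required by the rule for naming the 15. Urgcp had 2.58, 4.26, 113 and 116 CPM (log2 5.07). Smg8, a regulator of the nonsense-mediated decay kinase Smg1, had 2.22, 1.77, 64.9 and 65.9 CPM (log2 5.02). The others were Ddit4l, an inhibitor of mTOR signalling (6.27), the peptidyl-prolyl isomerase-like Fkbpl (5.55), the Cdc42 effector Cdc42ep4 (5.51), the checkpoint protein Mad2l1bp (5.38), Sertad1, a regulator of E2F and Cdk4 (5.32), the kinase Ripk4 (5.30), Itpripl1 (5.15), the tRNA-modifying enzyme Lcmt2 (5.13), the SOCS box protein Asb8 (5.07), the ubiquitin ligase Rnf183 (5.06) and the RNA polymerase III factor Brf2 (5.02). All 15 were also called higher at 2 h and at 0 h, as were 76.5% and 64.0% of all autosomal genes higher at 6 h. The values of the 15 were smaller then and ran from 2.62 to 5.75 at 2 h and from 0.94 to 4.20 at 0 h. Their transcripts had 1 to 8 exons with a median of 3, against 9 over all protein-coding genes tested.

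The 15 genes with the largest differences in the other direction, among those with a mean of at least 10 CPM before TMM scaling, spanned −9.16 to −3.19 and were mostly enzymes and secreted proteins of the liver. Eno1b was at the low end (96.5 and 101 CPM in Control, 0.22 and 0.11 in Mettl3 cKO, log2 −9.16), and its reads also set the Mettl3 cKO 6 h libraries apart from those of 0 and 2 h. Its parent enolase Eno1, chosen after its values were seen, differed by −0.52, and reads of such near-identical genes may be split uncertainly by counting. Cyp2c29, a drug-metabolising cytochrome P450 on chromosome 19 (39269405 to 39330713, plus strand), had 166 and 174 CPM in Control and 2.15 and 2.54 CPM in Mettl3 cKO (log2 −6.18, SE 0.12, adjusted p = 1.53e-23). The sulfotransferase Sult2a2 had 981 reads over both Control libraries and 3 over both Mettl3 cKO libraries, a ratio of 372 in scaled reads with a 95% counting interval of 127 to 1807. Spp1, which encodes osteopontin, had 294 and 324 CPM against 12.3 and 14.8 CPM (log2 −4.51). The growth factor gene Igf2 had 1229 and 1349.85 CPM against 80.1 and 75.9 CPM (log2 −4.05), and Ccnd1, which encodes cyclin D1, had 229 and 237 CPM against 25.2 and 24.6 CPM (log2 −3.23). The groups did not overlap in any of the 15 genes, as the rule for naming them required. The remaining members were the protease inhibitor Serpina1e (−5.24), Cyp2a12 (−4.26), the matrix protein Fbln2 (−4.24), the histidine-breakdown enzyme Uroc1 (−4.13), the class I gene H2-Q1 (−3.85), the steroid reductase Akr1c18 (−3.76), the glycine methyltransferase Gnmt (−3.69), Selenbp2 (−3.28) and Uox, the urate oxidase (−3.19). All 15 were also called lower at 2 h and at 0 h, as were 71.7% and 61.1% of all autosomal genes lower at 6 h. The limit on the mean left out less abundant genes such as Sult2a1 and Sult2a5, which are described with the conjugating enzymes.

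**Figure D2:**
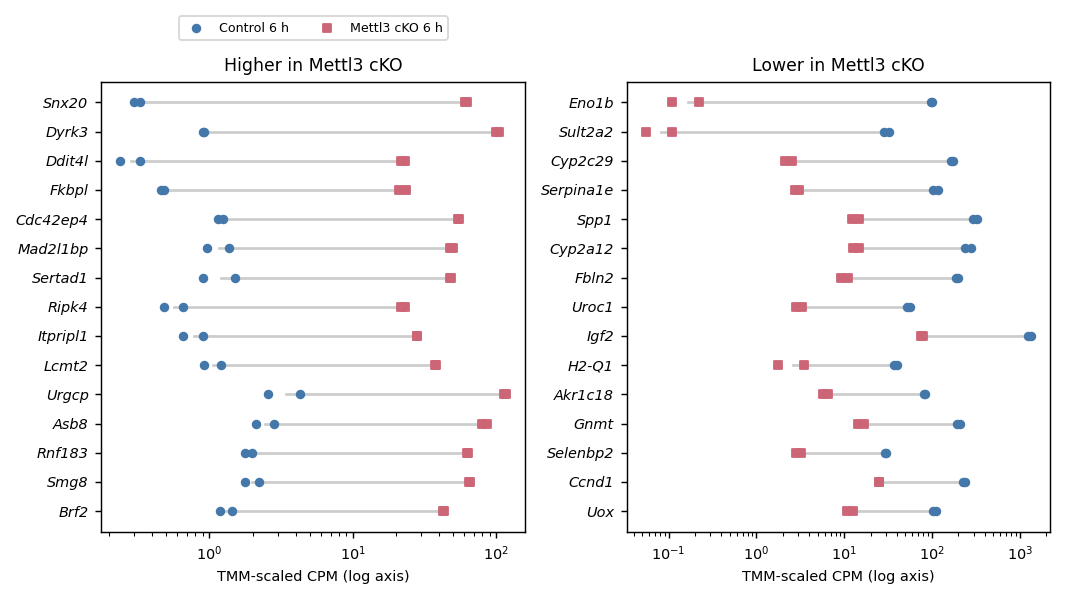
TMM-scaled CPM (log axis) of the 15 autosomal genes with the largest log2 difference in each direction at 6 h, one point per library, with Control in blue, Mettl3 cKO in red and a grey line between the group means. The higher genes lie at 0.240 to 4.26 CPM in Control and 21.1 to 116 CPM in Mettl3 cKO.

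Genes of the m6A pathway itself were among those called. Of 9 writer genes, which encode the methyltransferase and its partners, 8 were higher and 0 lower, with a list median of 1.13 against 0.04 over all genes. The counts of this and every later list stand beside 35.8% higher and 32.8% lower over all autosomal genes tested. Mettl3 itself is counted among the 8, and its call was lost when any 1 of 3 libraries was left out and with the DESeq2 Wald test. Rbm15, an adaptor that recruits the complex to RNA, had 10.3 and 12.98 CPM in Control and 65.7 and 63.8 CPM in Mettl3 cKO (log2 2.48, SE 0.092, adjusted p = 5.57e-18). Its paralog Rbm15b (1.77), Cbll1 (1.70) and Wtap (1.48), the subunit that directs the complex to nuclear speckles, were higher too, and Mettl14 at 0.15 was the member not called. Rbm15b was lower in Mettl3 cKO at 0 h (−0.42) and higher at 6 h, and the change of its difference was called (2.19).

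Of the 12 erasers and readers tested, 5 were higher and 4 lower, shares near the 35.8% and 32.8% of all genes, and the median of 0.05 turned to −0.015 with DESeq2 size factors. With total counts 7 were higher and 1 lower. The 3 cytoplasmic readers of the Ythdf family were all higher. Ythdf2, which recruits the Ccr4-Not deadenylase and lies on chromosome 4 (132184912 to 132212303, minus strand), had 6.79 and 8.26 CPM in Control and 179 and 175 CPM in Mettl3 cKO (log2 4.56, SE 0.083, adjusted p = 1.18e-23). Ythdf1 had 17.4, 18.2, 175 and 181 CPM (log2 3.32), and Ythdf3 had 66.6, 65.6, 227 and 223 CPM (log2 1.77). The demethylase gene Alkbh5 was higher as well (0.84), as was Ythdc1 (0.64). The 4 lower members, named after their values were seen, were Hnrnpc (−0.51), Hnrnpa2b1 (−0.30), Igf2bp3 (−0.25) and the demethylase gene Fto (−0.23). Group means of Ythdf2 were 70.3, 18.3 and 7.53 CPM in Control at 0, 2 and 6 h and 199, 188 and 177 CPM in Mettl3 cKO, so that its level was similar over time in Mettl3 cKO libraries and lower at each later time in Control libraries. Of 49 genes of the deadenylation and decay machinery, 18 were higher and 22 lower with TMM (median −0.04), beside 35.8% and 32.8% of all genes. With total counts 27 were higher and 13 lower (median 0.25), so that the direction of this list rests on the scaling. The 4 called members with the largest absolute differences were all higher, while the 22 lower ones differed by less. These 4 were the ribosome rescue factor Pelo (4.24), the antiproliferative adaptors Tob1 (2.96) and Tob2 (1.71), which bind the Caf1 deadenylase, and the decapping cofactor Pnrc2 (1.67).

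Among 23 hepatocyte transcription factors 15 were higher and 2 lower, with a median of 0.79. Hnf4a, the nuclear receptor at the centre of the hepatocyte network, on chromosome 2 (163506808 to 163572910, plus strand), was one of the 2 lower ones. It had 51.5 and 57.7 CPM in Control and 25.6 and 26.4 CPM in Mettl3 cKO (log2 −1.07, SE 0.097, adjusted p = 3.53e-10). The difference was −0.38 at 0 h and −0.41 at 2 h, and the groups did not overlap at 6 h. The other lower factor, named after its value was seen, was Nr1h3 (−0.32). Cebpb, a C/EBP factor of the injury response, had 4.93, 6.16, 73.2 and 70.0 CPM (log2 3.69, SE 0.16, adjusted p = 8.34e-17). Cebpa, its counterpart in the quiescent liver, had 6.49, 8.13, 31.4 and 30.4 CPM (log2 2.08, SE 0.14, adjusted p = 7.71e-13). The pioneer factors Foxa1 (3.48) and Foxa3 (3.00) and the nuclear receptor Nr5a2 (2.65) were higher in the same way. Of 25 genes known as targets of Hnf4a, 6 were higher and 15 lower, with a median of −0.75. Apoc3, an inhibitor of lipoprotein lipase, had 229, 233, 41.4 and 48.6 CPM (log2 −2.36), the carboxylesterase Ces3a differed by −2.42, and Pck1, the gatekeeper of gluconeogenesis, by −2.69 from levels of 2.10 and 2.23 CPM.

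Of 22 liver growth and patterning genes, which include genes that the study took up with these cells, 20 were higher and 0 lower, with a median of 1.34. This list was partly drawn from the study of these samples and is no independent evidence of its direction. Cited2, a CBP/p300-binding coactivator needed for liver growth in the embryo, lies on chromosome 10 from 17723218 to 17725674. It had 6.49 and 5.84 CPM in Control and 125 and 127 CPM in Mettl3 cKO (log2 4.35, SE 0.085, adjusted p = 2.69e-23). Its group means ran from 437 through 30.6 to 6.16 CPM in Control and from 551 through 243 to 126 CPM in Mettl3 cKO, and the difference at 0 h was 0.33. Notch2, a receptor of biliary differentiation, had 26.4, 26.2, 153 and 149.8 CPM (log2 2.53, SE 0.065, adjusted p = 3.89e-21). Its means were 120.3, 66.0 and 26.3 CPM in Control and 171, 151.5 and 152 CPM in Mettl3 cKO at 0, 2 and 6 h. The AP-1 component Jund (3.68) and the small GTPase gene Arf6 (2.80) were higher, whereas the circadian factor Dbp, at 0.541, 0.590, 0.937 and 0.221 CPM, had overlapping groups and no call (0.04, SE 0.59, adjusted p = 0.963). Of 30 TGF-beta, Smad and Yap targets 22 were higher and 0 lower, with a median of 0.72. They included the feedback inhibitors Bambi (3.67, from under 0.4 CPM in Control) and Smad7 (2.35), the corepressor Ski (2.10) and the Hippo pathway scaffold Ajuba (2.01).

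Genes of stress and early responses were mostly higher in Mettl3 cKO. Of 52 AP-1 and immediate early genes 32 were higher and 5 lower, with a median of 0.90. Rhob, a small GTPase, had 2.58, 2.82, 18.5 and 18.7 CPM (log2 2.79), while the 5 lower members, named after their values were seen, were Fos (−1.80), Fosb (−1.79), Gadd45b (−1.75), Nfkbia (−1.01) and Zfp36 (−0.67). Among 33 p53 targets and apoptosis genes 24 were higher and 5 lower (median 0.86). Mcl1, which protects cells from apoptosis, had 106, 93.8, 450.1 and 477 CPM (log2 2.21, SE 0.065, adjusted p = 6.80e-20), and Phlda3, an inhibitor of Akt induced by p53, had 14.8, 13.6, 116 and 109.8 CPM (log2 2.99). Gdf15 (1.96) and Btg2 (1.90) were higher too, but Trp53 itself, chosen after its value was seen, was lower (−1.28). Of 45 interferon-stimulated genes 27 were higher and 11 lower (median 0.69), beside 35.8% and 32.8% of all genes. With total counts 29 were higher and 3 lower. Iigp1 had 9.32, 11.8, 191 and 200.2 CPM (log2 4.22), and Isg15, a ubiquitin-like protein, had 18.6, 22.6, 245 and 264 CPM (log2 3.63), beside Rtp4 (3.92) and Ifit3 (3.60). These 4 are the called members with the largest absolute differences, and the 11 lower members differed by less. All 4 were already called higher at 0 h, as were 64.0% of all autosomal genes higher at 6 h. Of 39 genes of the integrated stress and unfolded protein response 22 were higher and 10 lower (median 0.22), beside 35.8% and 32.8% of all genes. With total counts 29 were higher and 5 lower. Chac1, a glutathione-degrading enzyme and Atf4 target, was lower at 0 h (−0.19) and higher at 6 h (4.01), and the pseudokinase gene Trib3 had 43.3, 44.1, 394 and 386 CPM (log2 3.16).

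Most lists of enzymes and secreted proteins of the differentiated hepatocyte had more lower than higher members. Of 48 cytochromes P450 tested 35 were lower and 6 higher, with a median of −1.57. Cyp3a41a had 49 reads in Control and 0 in Mettl3 cKO. It was 18.6-fold lower against a floor of 3 reads over the group, with a counting interval that starts at 14.6. Cyp2c50 differed by −4.61, and Cyp2c54, with 33 reads against 1, by a ratio of 37.5 with a counting interval of 6.29 to 1527. Of 38 conjugating enzymes 30 were lower and 4 higher (median −1.26). Sult2a5 had 150 reads in Control and 0 in Mettl3 cKO, 56.9-fold lower against the same floor, with a counting interval that starts at 45.7. Sult2a1 had 742 and 2 reads (ratio 422, interval 116 to 3492), and the glutathione transferase gene Gstm3 differed by −3.72. The Cyp2c, Cyp3a and Sult2a genes have close copies, so that the split of reads within each family is uncertain. Several of these enzymes are expressed at different levels in livers of male and female mice, and the 2 lists of such genes were therefore described as well. Of 37 female-biased liver genes listed, 30 were tested, with 19 lower and 6 higher (median −1.57). Of 31 male-biased ones listed only 14 were tested, with 7 lower and 4 higher (median −0.91). Those not tested included Mup20, Cyp4a12a, Hsd3b5 and Elovl3, so the male-biased list shows the sex difference only in part. The lower ones included Sult2a2 and Sult2a1 among the female-biased genes and Serpina1e and Cyp2d9 (−2.04) among the male-biased ones. At 0 h, where both groups had Y-linked reads, 16 of the female-biased genes were lower and 5 higher (median −1.03). Of the male-biased ones 7 were lower and 4 higher at 0 h (median −0.44), beside 25.4% lower and 29.8% higher over all genes. The Control 6 h libraries differ from the others in sex by Xist and the Y-linked genes, and the part of this in the lower enzymes was not tested.

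Nearly all genes of amino acid breakdown and the urea cycle were lower, with 37 of 40 lower and 2 higher (median −1.50). Uroc1 had 51.5, 56.7, 3.31 and 2.87 CPM (log2 −4.13), Gnmt had 195, 206, 16.9 and 14.2 CPM (log2 −3.69), the lysine-breakdown enzyme Aass differed by −3.62 and Haao of the kynurenine pathway by −3.16. The 2 higher members, named after their values were seen, were Nags (2.59), which makes the activator of the urea cycle, and Got1 (0.18). Of 36 plasma proteins 30 were lower and 4 higher with TMM (median −0.70) and 23 and 10 with total counts, with C9 (−3.08), Serpina1c (−1.996) and Azgp1 (−1.92) behind Serpina1e. The 4 plasma proteins higher with TMM, named after their values were seen, were haptoglobin Hp (1.503), Serpind1 (1.24), Fga (1.11) and Fgb (0.23). Of 17 acute phase genes 10 were lower and 5 higher (median −0.36), with Orm2 (−2.05), Saa2 (−1.67) and Orm1 (−1.45) on one side and the transcription factor Cebpd (3.15) on the other. Of 19 genes of bile acid synthesis and transport 12 were lower and 5 higher (median −0.85), with the transporter Slco1a4 at −3.14, the reductase Akr1d1 at −1.76, the conjugating enzyme Baat at 2.48 and the sterol hydroxylase Cyp8b1 at 1.31. Cyp8b1 was no longer called without Control 6 h replicate 2 (log2 0.81) or Mettl3 cKO 6 h replicate 1 (1.28).

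Among 23 genes of glucose production and glycogen 14 were lower and 4 higher (median −0.74). Pck1 was among the lower ones, while Fbp2 (2.25) and the glycogen-targeting subunit Ppp1r3b (3.24) were higher. Of 18 glycolytic genes 11 were lower and 5 higher with TMM (median −0.35), beside 32.8% lower and 35.8% higher over all genes. With total counts 6 were lower and 5 higher (median −0.06), and with the ribosomal protein standard 4 and 5. Among the higher ones were the hexokinases Hk1 (2.33) and Hk2 (0.81) and the glucose transporter gene Slc2a1 (1.52). Fatty acid genes were divided. Of 36 genes of fatty acid synthesis and lipid storage 22 were lower and 9 higher (median −0.38), with the desaturase Scd1 at 132, 129.6, 21.8 and 21.3 CPM (log2 −2.60) and, on the other side, the fatty acid uptake receptor Cd36 (3.05), the lipase inhibitor G0s2 (2.42) and Acacb (1.51). Of 36 genes of fatty acid oxidation and ketone synthesis 23 were lower and 9 higher (median −0.47), where Acaa1b (−2.31) and the hormone gene Fgf21 (−1.88) stood against the thioesterase Acot1 (4.17) and Acot3 (3.54, from 29 reads in Mettl3 cKO and 2 in Control). Cholesterol synthesis and uptake had 12 higher and 9 lower of 28 genes (median 0.07), near the shares over all genes, and 17 and 8 with total counts. The sterol transfer protein gene Stard4 had 33.2, 26.8, 49.8 and 53.2 CPM (log2 0.78), whereas the reductase gene Tm7sf2 was lower (−1.27).

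The 17 fetal liver genes tested were divided into 5 higher and 7 lower, beside 35.8% higher and 32.8% lower over all autosomal genes. Their median was −0.05, or 0.24 with total counts. Afp, the fetal counterpart of albumin, had 102 and 103 CPM in Control and 864 and 869.6 CPM in Mettl3 cKO (log2 3.08), with a difference of 3.93 at 0 h, and Cpn2 differed by 3.05. Igf2 and the neighbouring non-coding RNA H19, with 3024, 3717, 393 and 375 CPM (log2 −3.13), lay on the other side. The mean of Igf2 was 142 and 242 CPM in Control at 0 and 2 h and 1289 CPM at 6 h, whereas Mettl3 cKO stood at 72.0, 103 and 78.0 CPM. For H19 the Control means were 504, 825 and 3371 CPM and the Mettl3 cKO means 196, 279 and 384 CPM. The highest levels of both genes were thus in the 2 Control libraries of different origin. Of 41 cell cycle genes 19 were lower and 10 higher with TMM (median −0.34), beside 32.8% lower and 35.8% higher over all genes. With total counts 12 were lower and 13 higher (median −0.05). Ccnd1 and Ccna2 (−0.94) lay on one side and Aurka (1.19) and Foxm1 (0.95) on the other.

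With TMM, no gene of the ribosomal and respiratory lists was called higher. Of 74 cytosolic ribosomal protein genes tested, 60 were lower with TMM (median −0.28). With total counts 5 were higher and 6 lower (median 0.01), so that the direction of this list rests on the scaling. Rpl27 differed by −0.62, Rpl13a by −0.53 and Rpl37 by −0.51 with TMM, the last with no call under total counts. Of 73 nuclear-encoded oxidative phosphorylation genes 68 were lower and 0 higher (median −0.68), and with total counts 53 were lower and 2 higher (median −0.39). Ndufb10 of complex I had 67.7, 58.9, 28.6 and 26.6 CPM (log2 −1.20), next to Ndufc1 (−1.08), Atp5k (−1.06) and Sdhc (−0.996).

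**Figure D3:**
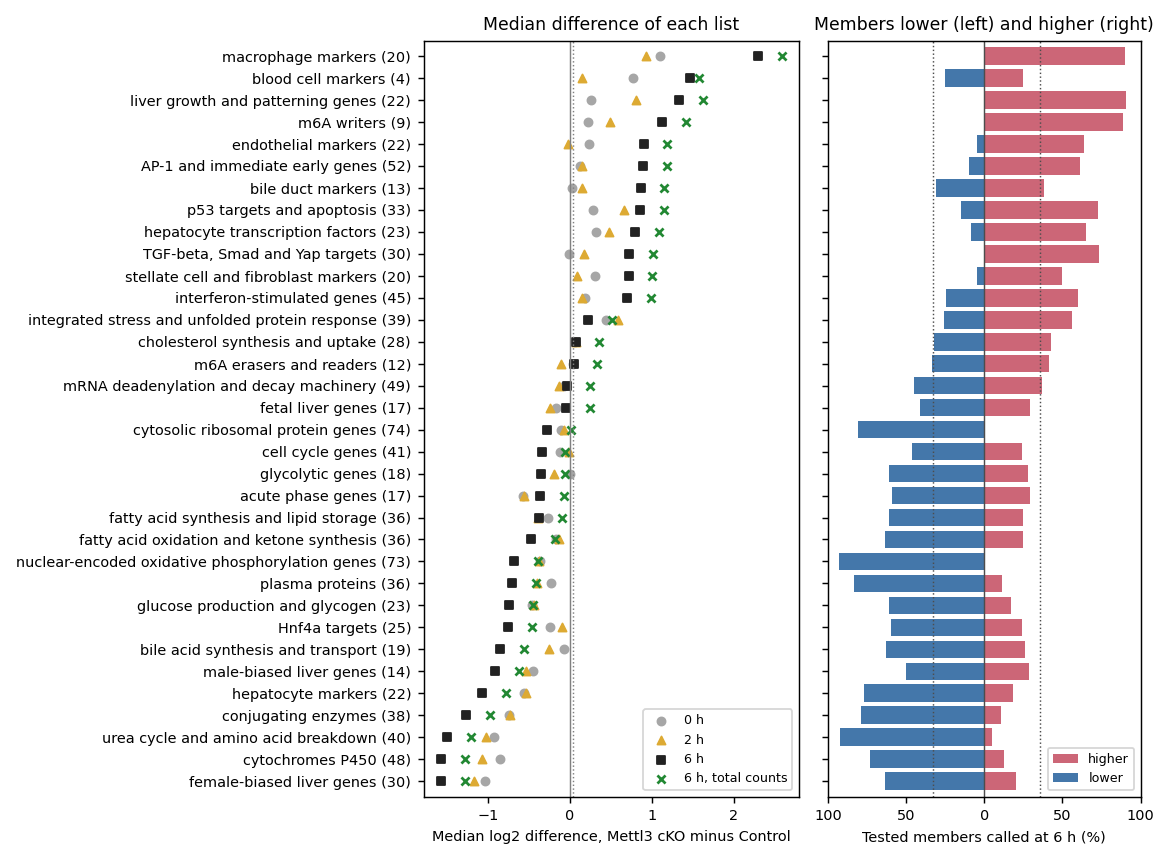
Median log2 difference of each gene list at 0, 2 and 6 h with TMM and at 6 h with total counts, and the percentage of its members called higher or lower at 6 h, with dotted lines for all autosomal genes. Medians at 6 h run from −1.57 (cytochromes P450 and female-biased genes) to 2.30 (macrophage markers).

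Markers of the different liver cell types did not move together. Of the 22 hepatocyte markers 17 were lower and 4 higher (median −1.07), and their summed level was 153711 and 173130 CPM in Control against 92526 and 92856 CPM in Mettl3 cKO, with the ureagenesis enzyme Cps1 (−2.16) and Tat (−2.09) among the lower ones. Of 20 macrophage markers 18 were higher and 0 lower (median 2.30), the highest median of any list, and their sum was 293 and 318 CPM against 640 and 617 CPM. Mpeg1 had 11.7, 12.8, 93.7 and 89.7 CPM (log2 2.91, SE 0.079, adjusted p = 1.16e-20), followed by Ctss (2.83), C1qb (2.77) and the Kupffer cell lectin Clec4f (2.75). The sum was higher in Mettl3 cKO at 0 h too, at 806 and 779 CPM against 429 and 422 CPM. In bulk RNA, more cells of a type and more RNA per cell cannot be told apart. Macrophages are not a target of the Alb-driven Cre, and their part in the other differences was not tested.

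Of 22 endothelial markers 14 were higher and 1 lower (median 0.90), but their sum was 252 and 298 CPM in Control and 238 and 222 CPM in Mettl3 cKO. The scavenger receptor Mrc1 (2.41) and Lyve1 (2.10) of sinusoidal cells were higher, Robo4 differed by 1.45, and Erg rested on 11 reads against 2. Robo4 was not called without Control 6 h replicate 1 (0.81) or Mettl3 cKO 6 h replicate 1 (0.87), and Erg was not called without Control 6 h replicate 1 (1.13) or without either Mettl3 cKO 6 h library (2.03 and 2.28), with the DESeq2 Wald test (adjusted p = 0.0741) or when the 6 h libraries were fitted alone (0.104, edgeR). Of 20 stellate cell and fibroblast markers 10 were higher and 1 lower (median 0.72). Acta2 had 34.5, 36.2, 124 and 112 CPM (log2 1.74), and Tagln (1.27) and Lum (1.25, or 0.91 with no call without Control 6 h replicate 2) were higher, whereas Vim was lower (979, 1053, 473 and 451 CPM, log2 −1.14). The stellate sums of 1443 and 1555 CPM against 1474 and 1367 CPM overlapped. Of 13 bile duct markers 5 were higher and 4 lower (median 0.86), near the 35.8% and 32.8% of all genes, or 7 and 3 with total counts. They included the claudin gene Cldn4 at 85.0, 75.5, 557 and 547 CPM (log2 2.78), Krt23 at 2.62 and Spp1 on the lower side. The bile duct sums were 541 and 577 CPM against 679 and 675 CPM. Blood cell markers were near 0. Only 4 of them were tested, 12 to 18 of 21 had no read in a library and the sums stayed under 2 CPM. The 1 member higher was Hbb-bs, with 9 reads in Mettl3 cKO and 0 in Control. It was 2.64-fold higher against the floor of 3 reads, with a counting interval that starts at 1.73. The 1 member lower was S100a9, with 13 reads in Control and 3 in Mettl3 cKO. Hbb-bs lost its call without either Control 6 h library or Mettl3 cKO 6 h replicate 2, at an adjusted p of 0.122, 0.108 and 0.241 from edgeR. S100a9 lost its call with total counts (0.0635) and the ribosomal protein standard (0.0539) and without Control 6 h replicate 2 or either Mettl3 cKO 6 h library (0.162, 0.147 and 0.0633). The median of the 4 blood cell markers tested was 1.47, or 0.28 with members that had no read in a group set at their fold against the floor.

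Whether the 6 h differences went with an early loss in Control was examined in libraries that the 6 h comparison does not use, namely Control at 2 h minus Control at 0 h. In the quintile of autosomal genes that fell furthest in relative level over those 2 h, with a median change of −1.33, the 6 h difference had a median of 1.13, and 60.4% of the genes were higher and 4.79% lower. In the other 4 quintiles the medians were 0.43, −0.04, −0.31 and −0.37. The shares of higher genes were 49.9%, 32.4%, 17.8% and 18.6% and those of lower genes 15.8%, 34.9%, 56.4% and 52.2%. The medians thus fell in order from the quintile with the largest early fall to the one with the largest gain, beside a background of 35.8% higher and 32.8% lower genes. With total counts the medians were 1.42, 0.71, 0.25, −0.02 and −0.08, in the same order. Genes are not independent replicates and are given here as a description.

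The difference also followed the exon structure of the transcript, taken from 1 principal transcript for each of 12844 protein-coding genes. The 270 genes with 1 exon had a median of 1.30 and the 585 genes with 2 exons one of 1.31, and 60.1% of these 855 genes were higher and 11.1% lower. With 3 exons the median was 0.84 and with 4 to 5 exons 0.26. From 6 exons on it lay near 0, at −0.01 for 6 to 10 exons, −0.06 for 11 to 20 (32.3% higher, 38.8% lower) and −0.06 for 21 or more. Multi-exon genes separated by the length of their longest internal exon. Where that exon was over 150 and up to 200 bp the median was −0.20 (26.3% higher, 46.2% lower), where it was over 500 and up to 1000 bp the median was 0.55, and in the 780 genes with an internal exon over 1000 bp it was 0.96 (68.7% higher, 8.97% lower). Notch2, with 34 exons, and Ythdf2, with 5, were thus both on the higher side while differing in exon number.

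**Figure D4:**
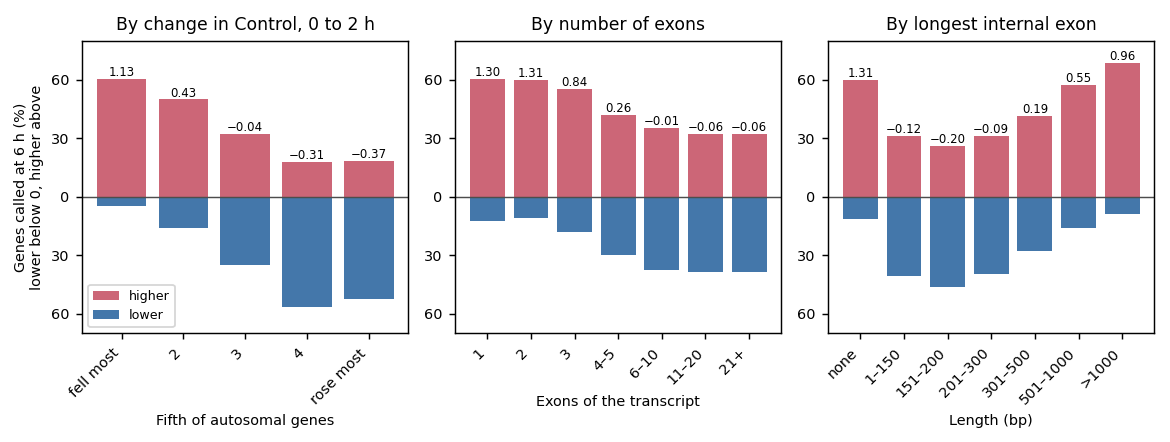
Percentage of autosomal genes called higher (red) or lower (blue) in Mettl3 cKO at 6 h by quintile of the Control change from 0 to 2 h, by exon number and by longest internal exon, with the median log2 difference above each bar. The higher share is 60.4% in the quintile that fell most in Control and 68.7% in genes with an internal exon over 1000 bp.

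Genes with few exons were also set against those with many within quintiles of expression. In quintiles of the Control 0 h level, from lowest to highest, genes with 1 or 2 exons had medians of 1.21, 1.35, 1.49, 1.40 and 0.94, and genes with 11 or more exons had 0.38, 0.15, −0.07, −0.08 and −0.24. Genes with 3 to 10 exons lay between them in the first 4 quintiles (0.67, 0.32, 0.12 and 0.02) but not in the highest (−0.28). Within quintiles of the early Control change, from the largest fall to the largest gain, the medians were 2.22, 1.10, 0.82, 0.32 and 0.04 for 1 or 2 exons and 0.77, 0.30, −0.16, −0.33 and −0.38 for 11 or more. Genes with 1 or 2 exons had a median of 0.38 at 0 h and 0.82 at 2 h, against 1.31 at 6 h. Longer transcripts had higher medians, from −0.27 in the shortest quintile through −0.06, 0.07 and 0.24 to 0.39 in the longest. Across genes the number of exons per kb of transcript had a Spearman correlation of −0.40 with the 6 h difference and −0.22 with the 0 h difference.

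The GGAC motif on its own set genes apart far less. It was searched as the letters GGAC on the transcript strand, and 99.6% of the transcripts held at least 1. By quintiles of GGAC per kb the 6 h medians were −0.04, 0.04, 0.09, 0.12 and 0.13, and the Spearman correlation across genes was 0.04. To show what such a motif looks like in transcripts on both sides of the comparison, 30 bases of coding sequence around a GGAC are printed for 3 higher genes and for Hnf4a. The motif taken was the last whose 30 bases lay within the coding sequence and a single exon, so a later GGAC before the stop codon can exist. They were read from the Gencode transcripts of mm10, 5′ to 3′ on the transcript strand, with the motif in capitals.
Cited2 (chr10:17724700-17724729, plus strand): ttgattttatgacGGACttcgtgtgcaagc
Ythdf2 (chr4:132204251-132204280, minus strand): tgaccaactctagGGACactcaggaagtgc
Cebpb (chr2:167689662-167689691, plus strand): ccaagaagacggtGGACaagctgagcgacg
Hnf4a (chr2:163568987-163569016, plus strand): tcacctcagcaatGGACagatgtgtgagtg
The Cited2 transcript has 1 exon and 7 GGAC motifs (2.90 per kb), Ythdf2 has 5 exons and 19 motifs (4.602 per kb), Cebpb has 1 exon and 12 motifs (7.98 per kb), and Hnf4a has 10 exons and 19 motifs (4.36 per kb). A match to these letters is a description and not a methylated site, and no m6A measurement was used here.

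The same contrast at the earlier times used other libraries, in which Gm8730 also set Control apart from Mettl3 cKO. At 2 h 4556 genes were higher (32.6%) and 3960 lower (28.3%), and at 0 h, without exposure to the drug, 4168 were higher (29.8%) and 3545 lower (25.4%). Of the genes higher at 6 h, 3825 were also higher at 2 h, which is 76.5% of the 6 h list and 84.0% of the 2 h list, and of those lower at 6 h 3289 were lower at 2 h (71.7% and 83.1%). With 0 h the shared numbers were 3204 (64.0% of the 6 h list and 76.9% of the 0 h list) and 2802 (61.1% and 79.0%). Genes called at 6 h and in no earlier comparison numbered 735 higher and 917 lower, and 203 higher and 178 lower ones were called the other way at 0 h.

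The change of the difference between 0 and 6 h was tested as a term of its own. It was more positive at 6 h in 3382 genes (24.2%) and more negative in 2670 (19.1%), or 4704 and 803 with total counts, 4051 and 653 with the ribosomal protein standard and 3293 and 2914 with DESeq2 size factors. More positive calls made up 55.9% of the calls with TMM, 85.4%, 86.1% and 53.1% with the others in that order. The Control libraries at 6 h are of another origin than those at 0 h, and the Mettl3 cKO libraries at 6 h differ from those at 0 h in Eno1b and Gm4735. The test therefore joins time with these differences in both groups. Dyrk3 had the largest change among named genes on the positive side (4.61), as its mean went from 21.3 to 0.910 CPM in Control and was 97.2 and 102 CPM in Mettl3 cKO. Cdc42ep4 (4.33), Ripk4 (4.24), Sertad1 (4.23) and Itpripl1 (4.21) followed, and Cited2 (4.02), Notch2 (2.01) and Cebpa (1.68) moved the same way. On the negative side were Eno1b (−8.87), Igf2 (−3.06), Csn3 (−1.91), the nuclear long non-coding RNA Neat1 (−1.91), Ces3a (−1.85) and Hnf4a (−0.69). Neat1 had 131, 125, 19.9 and 22.4 CPM at 6 h (log2 −2.59), with Control means of 33.5, 57.7 and 128 CPM and Mettl3 cKO means of 20.8, 30.8 and 21.2 CPM over time. Csn3 was higher in Mettl3 cKO at 0 h (2.59) and still higher at 6 h by a smaller value (0.68).

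**Figure D5:**
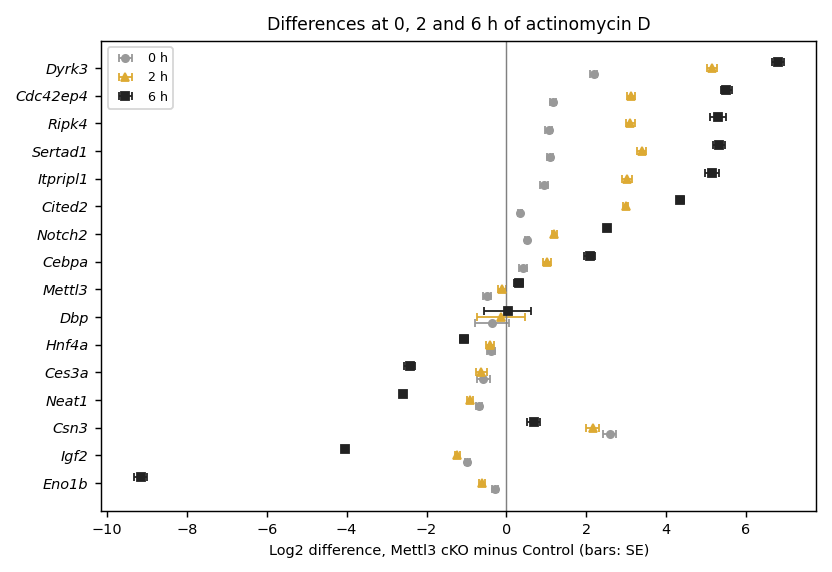
Log2 difference of Mettl3 cKO minus Control (point) with its SE (bar) at 0, 2 and 6 h for the genes that the study takes up and those with the largest change of the difference. Cited2 goes from 0.33 to 4.35 and Notch2 from 0.51 to 2.53, whereas Hnf4a goes from −0.38 to −1.07 and Igf2 from −0.98 to −4.05.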

How the data were processed

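RNA-seq counts per gene were analysed from primary mouse hepatocytes labelled Mettl3 cKO or WT (Control) after 0, 2 or 6 h of actinomycin D, 2 libraries each. The deposited counts were whole reads per gene with no normalization, which the authors made from poly(A) libraries of a kit that does not mark strand. The submitters' processing notes name STAR 2.5.3a, featureCounts 2.0.1, edgeR and the build mm10, and only uniquely mapped reads were counted. Overlapping and antisense genes therefore cannot be told apart, and genes with near-identical copies are uncertain. The release of Gencode that was counted is unknown here. Positions, exons and transcripts were taken from Gencode vM21 for mm10 (48058 of 48440 IDs matched, 382 without a chromosome), with the principal transcript of each gene. No column was unmatched (0) and 0 entries named no gene.

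Genes were kept by filterByExpr (minimum count 10, minimum total 15) and compared by the quasi-likelihood test of edgeR 4.0.16 (R 4.3.3), fitted to all 12 libraries in 6 groups, with TMM library sizes and Benjamini-Hochberg adjustment over 14488 genes at 0.05. All groups share 1 estimate of the spread. Intervals are at 95% and, like floors of 3 reads, cover counting error only. Alternatives were total counts, DESeq2 1.42.0 size factors and its Wald test, a ribosomal protein standard of 75 genes, no filter, a stricter filter (100 reads or more in each of the 6 h libraries), only the 6 h libraries, an absolute log2 difference over 1, the replicate number as a block and each library left out, where the spread of a group with 1 library was taken from the others. Replicates of a group differed beyond sampling noise (chi-square per gene 2.14 to 9.16), so none was counted as 1 sample with another. Labels do not say that replicate numbers mark a shared animal or day. On simulated data for the 6 h contrast over 13926 genes, the test recovered 26.8% of the changes of 0.5 log2 and 75.3% of the changes of 1 log2, and called 3 unchanged genes. Only 200 genes were changed there, as many up as down, at a dispersion of 0.01 for all genes. The real data have far more calls and a balance that depends on the scaling, so this simulation does not measure their error rate.

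The comparison, the 34 gene lists (938 genes tested, written from general knowledge and the study) and the naming rule were chosen with earlier results of these data known. The lists are those whose counts and medians are given in the results, and 102 of their entries were not tested, most of them below the filter or X-linked. Named genes are Mettl3, Hnf4a, Cited2, Cebpa, Notch2 and Dbp, the 15 called genes per direction that differed most at 10 CPM or more on average (before TMM scaling), with groups that do not overlap, without predicted genes, pseudogenes and clones, up to 4 called members of each list, the 5 with the largest change of the difference in each direction by the same criteria, Xist and 4 Y-linked genes, and defining markers of cell types. Other genes are named as chosen after their values were seen. A few genes that meet these criteria were omitted from the text.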

Additional observations from a re-analysis of the deposited data

Results flagged for a closer look

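The following results drew attention because the difference between Mettl3 cKO and Control at 6 h was not the one at 0 h, by the test of the change itself. A total of 3382 autosomal genes had a more positive and 2670 a more negative difference at 6 h. Among the genes the study takes up the change was 4.02 for Cited2, 2.01 for Notch2, 1.68 for Cebpa, 0.79 for Mettl3 and −0.69 for Hnf4a on the log2 scale. The largest positive changes among named genes were 4.61 for Dyrk3, 4.33 for Cdc42ep4, 4.24 for Ripk4, 4.23 for Sertad1 and 4.21 for Itpripl1. On the negative side stood −8.87 for Eno1b, −3.06 for Igf2, −1.91 for Csn3, −1.91 for Neat1 and −1.85 for Ces3a.

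Reads outside the autosomal comparison gave a further signal. Xist had 20246 reads in Control 6 h replicate 1 and 16565 in replicate 2, against at most 6 in every other library. The part of this difference in origin in the changes above was not tested, nor was that of the Eno1b and Gm4735 reads that set the Mettl3 cKO 6 h libraries apart.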

How the results depend on the processing

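The counts of 5003 higher, 4584 lower, 3382 more positive and 2670 more negative genes were recomputed under each alternative. They moved by more than 1.5 times in these cases: lower genes were 2739 with total counts and 2506 with the ribosomal protein standard, more negative genes 803 and 653 with the same scalings, higher genes 3027 with at least 100 reads in every 6 h library (8055 genes tested), and higher and lower genes 2937 and 972 past an absolute log2 difference of 1. The last 3 follow from the stricter criteria, while for the scalings the cause was not tested. Without 1 library the 4 counts ran from 4401 to 4626, 4111 to 4557, 2958 to 3255 and 2186 to 2997. With the replicate block they were 4956, 4513, 3326 and 2540. Replicate numbers did not pair the samples, since deviations of same-numbered libraries correlated by −0.10 to 0.03, and of 149 named genes the block ended the call of 1, Hbb-bs (adjusted p = 0.0556, edgeR). The gap between genes with 1 or 2 exons and those with 11 or more was 1.37 with TMM and 1.35 with total counts, a setting chosen after seeing the data, as was the 2 h comparison in place of the 6 h one (4556 and 3960). Of 34 lists 15 had a median above 0, against 18 with total counts and 14 with DESeq2 size factors. The direction reversed for deadenylation and decay machinery (0.25), fetal liver genes (0.24) and ribosomal protein genes (0.0079) with total counts, and for m6A erasers and readers (−0.015) with DESeq2 size factors. Dbp, not called, was −0.025 with DESeq2 size factors, −0.025 with the Wald test, and from −1.33 to 0.73 without 1 library, below 0 without Control 6 h replicate 1 (−0.07) or Mettl3 cKO 6 h replicate 1 (−1.33). The call of Mettl3 at 6 h was lost with the Wald test (adjusted p = 0.0869) and without Control 6 h replicate 1 (0.0507), Control 6 h replicate 2 (0.115) or Mettl3 cKO 6 h replicate 2 (0.333). Of 1702 values of named genes under alternatives 1674 kept direction and side of the threshold. Precision is limited by 2 libraries a group, and genes with few reads in one group have wide errors.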
